A study of Homo sapiens with 12 samples.

Results

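Zinc protoporphyrin was compared with the solvent DMSO in SH-SY5Y cells, an established human neuroblastoma line used as a model of sympathetic neurons. The comparison rests on 6 of the 12 libraries of the series, 3 from wells given zinc protoporphyrin at 5 µM and 3 from wells given DMSO alone, and on the 16366 of 60710 listed genes that passed a filter on low counts. In each group the cells were lysed 5 h after 10 µL of solvent, with or without compound, went into 2 mL of medium. The other 6 libraries, 3 from tin protoporphyrin and 3 from HPPE at the same dose and time, entered the same model, so that all 4 groups share one estimate of spread and the difference between zinc and tin protoporphyrin could be tested directly. The labels do not spell out HPPE. The labels do not say whether replicates were separate cultures, so p-values measure the spread between these libraries, which may be technical.

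Zinc protoporphyrin is heme with zinc in the place of iron, and tin protoporphyrin carries tin there; both are known as competitive inhibitors of heme oxygenase. Heme itself is known to act on transcription in opposite ways at the ends of its own pathway: it releases the repressor BACH1 from the gene of the inducible heme oxygenase, HMOX1, and lowers the expression of ALAS1, the enzyme of the first and rate-limiting step of heme synthesis outside red cells. The HMOX1 gene is also a target of NRF2 (gene NFE2L2), a factor that KEAP1 marks for destruction and that switches on antioxidant genes.

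The 6 libraries were unequal in depth. DMSO replicates 1 to 3 held 7865547, 7621982 and 1514595 counts, and zinc protoporphyrin replicates 1 to 3 held 1337028, 7855473 and 8540540, so DMSO 3 and zinc 1 were shallow. A count of 3, taken as the floor of detection in a library, corresponded to between 0.361 and 0.397 CPM (counts scaled to library size) in the 4 deep libraries, to 1.91 CPM in DMSO 3 and to 2.26 CPM in zinc 1; the reads carry no molecular identifiers, so such limits cover counting error only. The libraries also followed a trend on transcript length. Across 10952 genes, the Spearman correlation between transcript length and how far a library lay above or below the mean of each gene was 0.44, 0.19 and -0.46 in DMSO 1 to 3 and 0.22, 0.38 and 0.57 in zinc 1 to 3, and that of the log2 fold change between the groups was 0.35. These are correlations across genes, which are not replicates, and only describe the libraries. Of 9 markers of noradrenergic neuroblastoma cells 8 were measured and the list summed to 3053 to 3353 CPM in DMSO and 2495 to 2875 CPM in zinc protoporphyrin, whereas TH, tyrosine hydroxylase, had 1 count in DMSO 1, 1 in zinc 3 and 0 in the other libraries. Schwann and glial markers (2 of 4 tested) summed to 3.84 to 5.74 CPM in DMSO and 3.76 to 6.86 CPM in zinc protoporphyrin. Endothelial markers (0 of 3 tested) summed to at most 1.51 CPM in any library and immune markers (0 of 5 tested) to at most 1.32 CPM.

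HMOX1 rose and ALAS1 fell with zinc protoporphyrin. HMOX1 (ENSG00000100292.18; GRCh38 chromosome 22, 35380361 to 35394214, plus strand) was at 67.8, 43.3 and 29.8 CPM in zinc protoporphyrin replicates 1 to 3 and at 5.42, 4.62 and 7.66 CPM in DMSO replicates 1 to 3. The lowest zinc library stood above the highest DMSO library, and the zinc libraries differed among themselves by more than the DMSO libraries did, with the shallow zinc 1 at the top. The means were 47.0 ± 19.2 and 5.90 ± 1.57 CPM (SD, n = 3), a log2 fold change of 2.97 ± 0.24 (SE; edgeR adjusted p = 4.05e-06), or 7.81-fold. Without both shallow libraries the log2 fold change was 2.86. The tin protoporphyrin libraries held HMOX1 at 7.97, 7.20 and 6.96 CPM, inside or just above the DMSO values, and the HPPE libraries at 332, 365 and 358 CPM, above every zinc library.

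ALAS1 (ENSG00000023330.15; chromosome 3, 52198086 to 52214327, plus strand) was at 12.8, 12.8 and 11.8 CPM in zinc protoporphyrin 1 to 3 and at 23.8, 26.3 and 31.9 CPM in DMSO 1 to 3. Every zinc library was below every DMSO library, and the zinc libraries lay within about 1 CPM of each other. The log2 fold change was -1.09 ± 0.14 (adjusted p = 0.000329), which left 47.1% of the control level. It kept its sign and its call in all 18 alternative analyses, and so did HMOX1, whose log2 fold change lay between 2.77 and 3.25 there. ALAS1 stood at 22.3, 20.8 and 24.2 CPM with tin protoporphyrin and at 30.8, 36.0 and 34.8 CPM with HPPE. ALAS1 was the only one of 68 genes called lower that was called in all 18. The promoter of ALAS1 is shown because ALAS1 fell in every analysis; it is the 250 bases before the RefSeq start (build GRCh38.p14, chr3:52197833-52198082, plus strand), with the single motif match in capitals, a metal response element core on the opposite strand:
ALAS1: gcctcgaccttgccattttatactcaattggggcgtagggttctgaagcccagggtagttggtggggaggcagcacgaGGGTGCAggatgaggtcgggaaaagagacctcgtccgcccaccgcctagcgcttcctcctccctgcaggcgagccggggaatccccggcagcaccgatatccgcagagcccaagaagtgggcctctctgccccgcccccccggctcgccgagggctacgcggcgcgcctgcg
The cores searched, TGCACNC and TGCGCNC on both strands (at 172 to 166 bases before the start here), are in 24.8% of all 35116 RefSeq promoters cut to the same length and in 31.6% of those of genes tested, so a match of this kind is common; it is a description of letters and not a site of binding.

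**Figure D1:**
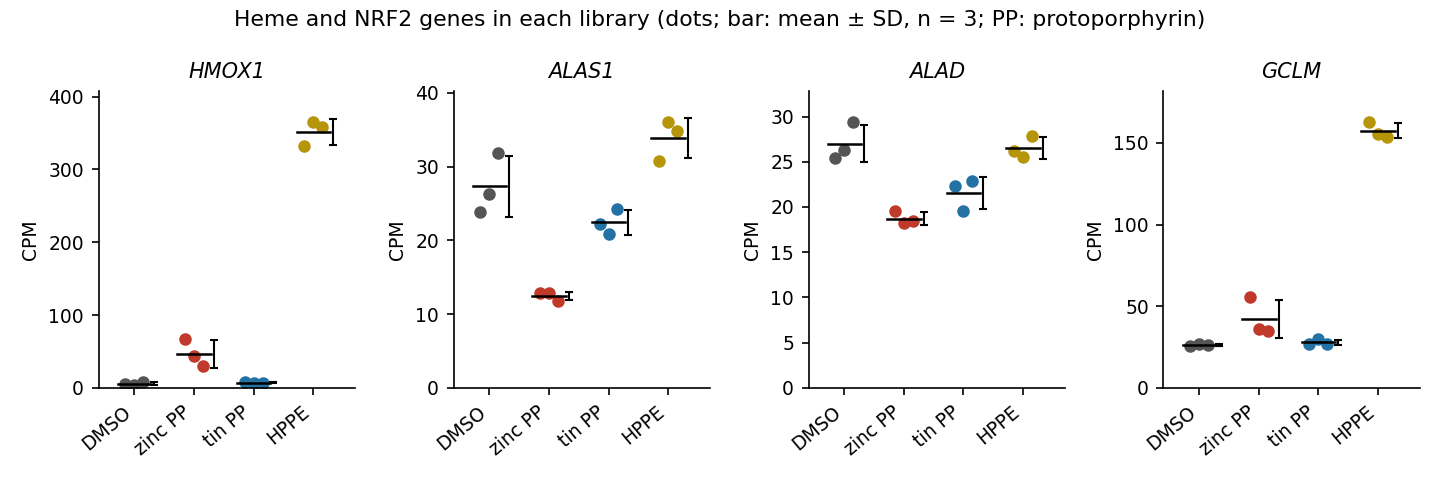
CPM of HMOX1, ALAS1, ALAD and GCLM in each of the 12 libraries (dots, replicates 1 to 3 from left to right), with the group mean (line) and SD (bar, n = 3), on linear axes that start at 0. HMOX1 and GCLM in the zinc protoporphyrin libraries lie between those of DMSO and HPPE, and the group means of ALAS1 and ALAD are lowest in zinc protoporphyrin.

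Across all genes tested, 301 were called higher with zinc protoporphyrin (1.84%) and 68 lower (0.415%) at an edgeR adjusted p under 0.05, and of these 115 rose and 4 fell at least 2-fold. Among the 301 called higher, 216 had a mean of at least 10 CPM in a group. The 3 and 3 values did not overlap in 291 of the 301 and in 67 of the 68; over all genes tested, values did not overlap in the higher direction in 11.6% and in the lower direction in 10.4%. The counts depended on single libraries. Without DMSO 2 there were 71 higher and 1 lower and without zinc 3 there were 84 and 3, against 178 and 31 without DMSO 1, 188 and 27 without zinc 2, 217 and 31 without zinc 1 and 211 and 53 without DMSO 3; without DMSO 3 and zinc 1 together they were 158 and 25. Genes called higher had a median transcript length of 4953.5 bases and those called lower 4184, against 3327 over all genes tested. When each library was corrected for its trend on length and GC content, 286 of the 301 and all 68 kept their call.

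A core of 46 genes (0.281% of those tested) was called in the same direction in the analysis given here and in all 18 alternatives: 45 rose and ALAS1 fell. Apart from HMOX1 and ALAS1, the core held 0 genes of the lists for heme, iron, metals and NRF2. These lists had 9 to 25 measured genes each, so beside a core share of 0.281% this 0 says little about them. INSYN2B, which encodes a synaptic regulator, was at 12.8, 13.3 and 11.9 CPM with zinc protoporphyrin and 2.91, 3.17 and 3.83 CPM with DMSO (log2 fold change 2.01 ± 0.18, adjusted p = 8.18e-06). TRAF1, an adaptor of the TNF receptor family, was at 20.3, 18.3 and 16.5 CPM against 3.44, 6.07 and 7.02 CPM (1.82 ± 0.21). EPPK1, epiplakin of the cytoskeleton, was at 15.8, 19.0 and 19.0 CPM against 4.37, 3.96 and 2.55 CPM (2.21 ± 0.32). In none of these did the zinc and DMSO libraries overlap. SYNJ2, a phosphoinositide phosphatase, rose by 1.43 ± 0.11 on the log2 scale, PAPPA, a protease that cleaves IGF-binding proteins, by 1.39 ± 0.14, DKK2, a WNT modulator, by 1.24 ± 0.11 and FAM30A, a long non-coding RNA, by 1.37 ± 0.17. UBASH3B, a phosphatase that restrains tyrosine kinase signals, rose by 1.54 ± 0.22 and MICAL2, an actin oxidase, by 1.21 ± 0.14. Other members, picked after their values were seen, were ITGA2, an integrin subunit (1.08 ± 0.14), the filamin FLNC (0.86 ± 0.10), TNS1, tensin (0.91 ± 0.12), FBLIM1, migfilin (0.87 ± 0.09), FERMT2, kindlin (0.54 ± 0.08), ACTN1, an actinin (0.55 ± 0.07), NEDD9, a docking protein of adhesion sites (0.91 ± 0.12), and LIMA1, which bundles actin (0.66 ± 0.09). The lowest log2 fold change among the 45 was 0.50 for WDR1, an actin-disassembly factor.

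The same 46 genes were compared between zinc and tin protoporphyrin, which differ in the central metal and were given at the same dose and time. HMOX1 was the only gene of all 16366 with an adjusted p under 0.05 (0.00611%; 2176 genes had an unadjusted p under 0.05), at a log2 difference of 2.49 ± 0.21 (zinc minus tin, adjusted p = 2.04e-05, 95% interval 2.05 to 2.93). DESeq2 called 1 gene higher and 1 lower, and without tin protoporphyrin replicate 2 edgeR called 777 and 676. ALAS1 was lower with zinc than with tin protoporphyrin by a log2 difference of -0.86, with an interval of -1.14 to -0.57; its edgeR adjusted p of 0.0533 did not pass. For 34 of the 46 genes the interval of the difference covered 0. Of the rest besides HMOX1 and ALAS1, ZYX was lower with zinc than with tin by -0.46 and THBS1 by -0.31, and FAR2 was higher by 0.27, with no adjusted p under the threshold. Leaving out HMOX1 and ALAS1, no interval reached below -0.67 or above 0.76, which bounds the difference between the metals for the other 44 genes but does not show that they act alike. HPPE differed from zinc protoporphyrin in 2078 genes (12.7%), 1054 higher and 1024 lower with HPPE. These counts rested on single libraries: they were 100 and 73 without zinc 3, 109 and 78 without HPPE 2, 192 and 150 without HPPE 3 and 507 and 603 without zinc 2. HMOX1 was higher with HPPE by 3.08 ± 0.17 on the log2 scale, GCLM by 2.02 ± 0.11, ALAS1 by 1.45 ± 0.13 and ABCC3 by 1.46 ± 0.12. The log2 fold changes of HPPE over zinc protoporphyrin correlated with transcript length at -0.53 across genes, more strongly than those of zinc protoporphyrin over DMSO.

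**Figure D2:**
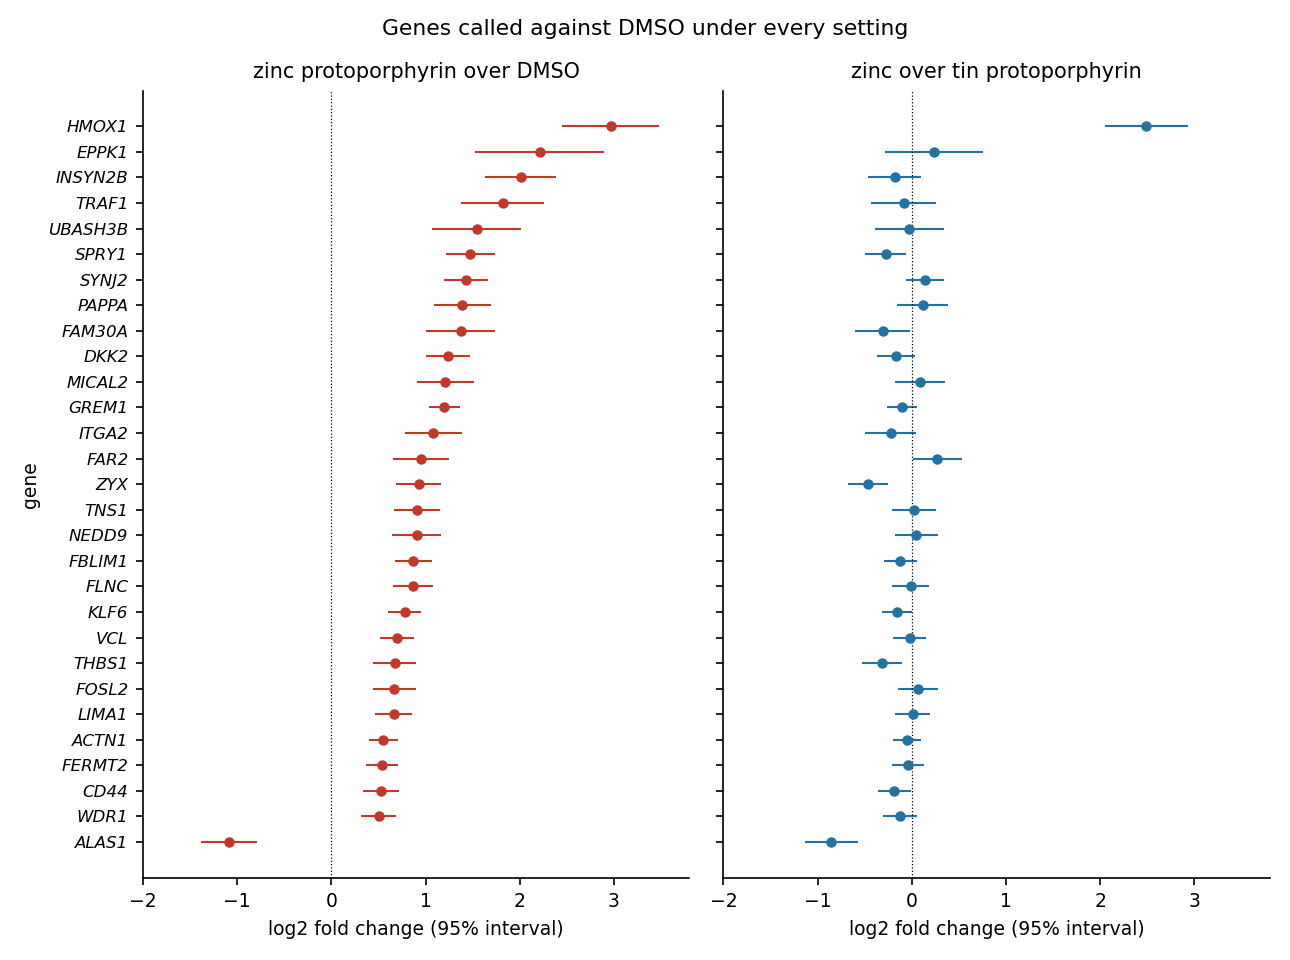
Log2 fold changes (dots) and 95% intervals (lines) of 29 of the 46 genes called in every analysis, those named in the text, for zinc protoporphyrin over DMSO (left) and over tin protoporphyrin (right), in the order of the left values. On the right only HMOX1 and ALAS1 lie beyond 0.76 or -0.67.

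Of the genes of heme synthesis ALAS1 and ALAD fell. All 13 measured genes of the list had a log2 fold change below 0, with a median of -0.24 against -0.004 over all genes tested, and 2 of the 13 were called lower, beside 0.415% of all genes tested. ALAD, the enzyme of the step after ALAS1, was at 19.6, 18.2 and 18.4 CPM with zinc protoporphyrin and 25.4, 26.3 and 29.4 CPM with DMSO, without overlap, a log2 fold change of -0.52 ± 0.12 (adjusted p = 0.0286); it lost its call in 10 of 18 alternatives, with an adjusted p of 0.131 without DMSO 2 and 0.0746 without both shallow libraries. PPOX, protoporphyrinogen oxidase, was at -0.53 (adjusted p = 0.114), CPOX, coproporphyrinogen oxidase, at -0.38 (0.22), SLC25A38, a mitochondrial glycine carrier, at -0.39 (0.123), and FECH, ferrochelatase, which inserts the metal, at -0.30 (0.132). Between 11 and 13 of the 13 were below 0 under the alternatives. Under the correction for length and GC content 12 were below 0 and the median was -0.16. Of the genes of heme breakdown and transport 11 of 13 were measured and HMOX1 alone was called, beside 1.84% of all genes tested called higher. The constitutive heme oxygenase HMOX2 had a log2 fold change of -0.06, with means of 24.2 CPM with zinc protoporphyrin and 24.5 CPM with DMSO, and BLVRA, biliverdin reductase, stood at 35.9 ± 4.85 and 34.8 ± 4.12 CPM.

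Iron and metal genes did not pass the test. None of 17 genes of iron storage, uptake and sensing was called by edgeR or DESeq2. An unadjusted edgeR p under 0.05 was seen in 2 of them, beside 3051 of all 16366 genes tested. The ferritin chain genes FTH1 and FTL had log2 fold changes of -0.04 and -0.17, and TFRC, the transferrin receptor, -0.09. None of 9 measured genes of the metal response was called by either tool, and 0 had an unadjusted p under 0.05. SLC30A1, the zinc exporter that zinc is known to raise through MTF1, was at 88.8, 68.4 and 66.6 CPM with zinc protoporphyrin and 77.7, 67.1 and 55.5 CPM with DMSO, and the groups overlapped (log2 fold change 0.06 ± 0.13). MT2A, a metallothionein, was at 6.02, 2.36 and 2.53 CPM against 2.25, 2.11 and 6.38 CPM, near the floor in the shallow libraries. With HPPE, MT2A averaged 19.0 CPM and SLC30A1 122 CPM.

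Among other targets of NRF2 GCLM alone passed the test. Of 25 measured targets besides HMOX1, 15 were above 0 and the median log2 fold change was 0.05. The test called 1 of them higher, beside 1.84% of all genes tested. A single call in a list of this size says little about the targets as a group. GCLM, the modifier subunit of glutathione synthesis, was at 55.7, 36.4 and 35.1 CPM with zinc protoporphyrin and 25.7, 27.2 and 26.2 CPM with DMSO, without overlap (0.56 ± 0.13, adjusted p = 0.0311); its adjusted p was 0.127 without DMSO 2 and 0.0501 without both shallow libraries. SLC7A11, the cystine carrier, was at 41.4, 12.8 and 12.8 CPM against 9.92, 6.34 and 8.30 CPM, and OSGIN1, an oxidative stress-induced growth inhibitor, at 17.3, 10.1 and 7.94 CPM against 6.61, 5.02 and 6.38 CPM. Neither passed the test (adjusted p = 0.112 and 0.0989). Zinc 1 was the highest zinc library for HMOX1, GCLM, SLC7A11 and OSGIN1 alike. NQO1, a quinone reductase, averaged 24.1 CPM with zinc protoporphyrin, 22.3 CPM with DMSO and 124 CPM with HPPE (log2 fold change of zinc protoporphyrin over DMSO 0.04). TXNRD1, thioredoxin reductase, was at 261 ± 31.3, 235 ± 17.8 and 806 CPM in the same order. The regulators NFE2L2, KEAP1 and BACH1 had log2 fold changes of 0.00, -0.06 and 0.18 and were not called; BACH2, a relative of BACH1, was at 78.3, 64.0 and 81.6 CPM against 55.8, 49.4 and 40.8 CPM (0.56 ± 0.13, adjusted p = 0.0331, and 0.159 without DMSO 2). ABCC3, an organic anion exporter, was the 1 gene called of 11 measured for porphyrin and xenobiotic transport and metabolism, beside the same 1.84%. It was at 24.1, 17.8 and 20.5 CPM against 11.2, 10.3 and 12.1 CPM (0.86 ± 0.14, edgeR adjusted p = 0.00384, and 0.0517 without DMSO 2). The antioxidant response element core, TGACNNNGC on either strand, stood in 8 of the 25 RefSeq promoters matched to the NRF2 target list (32.0%), in 7.82% of the 371 promoters matched to genes called higher, in 11.8% of those of genes tested and in 10.9% of all promoters.

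Genes that answer to actin dynamics, serum response factor and YAP made up the list with the most calls. Of 19 measured members of the list 17 were above 0, 10 were called higher (against 1.84% of all genes tested) and 0 lower, with a median log2 fold change of 0.43. ZYX, zyxin of adhesion sites, was at 97.9, 102 and 85.5 CPM with zinc protoporphyrin and 46.8, 50.0 and 55.5 CPM with DMSO (0.93 ± 0.11, adjusted p = 0.000168). VCL, vinculin, was at 221, 237 and 231 CPM against 148, 140 and 138 CPM (0.70 ± 0.09, adjusted p = 0.000233). ANKRD1, a YAP target, was at 11.3, 14.7 and 13.0 CPM against 4.76, 5.02 and 8.93 CPM (1.32 ± 0.21, adjusted p = 0.00265). No zinc library of these 3 genes fell within the DMSO range. THBS1, thrombospondin, rose by 0.68 ± 0.11 on the log2 scale, CCN1, a matricellular YAP target, by 0.75 ± 0.16 and CALD1, caldesmon, by 0.54 ± 0.10. Smaller rises were seen in the filamin FLNA (0.43 ± 0.09), CNN2, calponin (0.53 ± 0.13), and the tropomyosins TPM4 (0.39 ± 0.08) and TPM1 (0.31 ± 0.07). Without both shallow libraries 6 of the list were called (ZYX, VCL, ANKRD1, THBS1, CALD1 and TPM4), without zinc 3 there were 5, and without DMSO 2 there were 4 (ZYX, VCL, ANKRD1 and THBS1). ACTB and ACTG1, the cytoplasmic actins, had log2 fold changes of 0.24 and 0.30 and were not called. With tin protoporphyrin and HPPE, which share the 3 DMSO libraries as controls, ZYX averaged 130 and 113 CPM and VCL 234 and 228 CPM. The promoters of called members are shown to compare them, each the 250 bases before the RefSeq start (GRCh38.p14; VCL chr10:73997866-73998115 and ZYX chr7:143381095-143381344 on the plus strand, ANKRD1 chr10:90921088-90921337 on the minus strand), with matches in capitals:
ZYX: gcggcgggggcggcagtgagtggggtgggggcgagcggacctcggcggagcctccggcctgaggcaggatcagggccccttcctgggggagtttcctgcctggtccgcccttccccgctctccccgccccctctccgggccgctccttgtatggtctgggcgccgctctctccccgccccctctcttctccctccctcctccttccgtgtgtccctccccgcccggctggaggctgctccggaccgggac
VCL: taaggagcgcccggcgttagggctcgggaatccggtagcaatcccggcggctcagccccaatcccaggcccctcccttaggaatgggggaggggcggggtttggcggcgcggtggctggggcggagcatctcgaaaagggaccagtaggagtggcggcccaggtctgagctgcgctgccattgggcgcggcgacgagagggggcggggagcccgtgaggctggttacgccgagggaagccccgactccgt
ANKRD1: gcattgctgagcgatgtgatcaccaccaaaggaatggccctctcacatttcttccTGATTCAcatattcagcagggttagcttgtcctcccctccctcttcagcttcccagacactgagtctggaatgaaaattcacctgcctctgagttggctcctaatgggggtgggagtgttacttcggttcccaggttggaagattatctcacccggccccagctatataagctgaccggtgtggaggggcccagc
The search covered AP-1 (TGANTCA), CRE (TGACGTCA), the E-box (CACGTG), 1 strict form of the serum response element and the cores given above, on both strands; AP-1 and the antioxidant core overlap in part of their letters. ANKRD1 holds an AP-1 match at 195 to 189 bases before the RefSeq start, and no match was found in the windows of ZYX and VCL. AP-1 was in 6.57% of all promoters, in 4.37% of those of genes tested and in 5.39% of those of genes called higher. That serum response element was in 0.0313% of all promoters, in 0.0364% of those of genes tested and in 0 of those called. All 3 genes start in GENCODE upstream of the RefSeq start, at 73995193 for VCL, 143381080 for ZYX and 90921276 for ANKRD1. The windows of VCL and ZYX thus lie inside the GENCODE gene, and that of ANKRD1 does in part. Other promoters of these genes were not looked at.

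**Figure D3:**
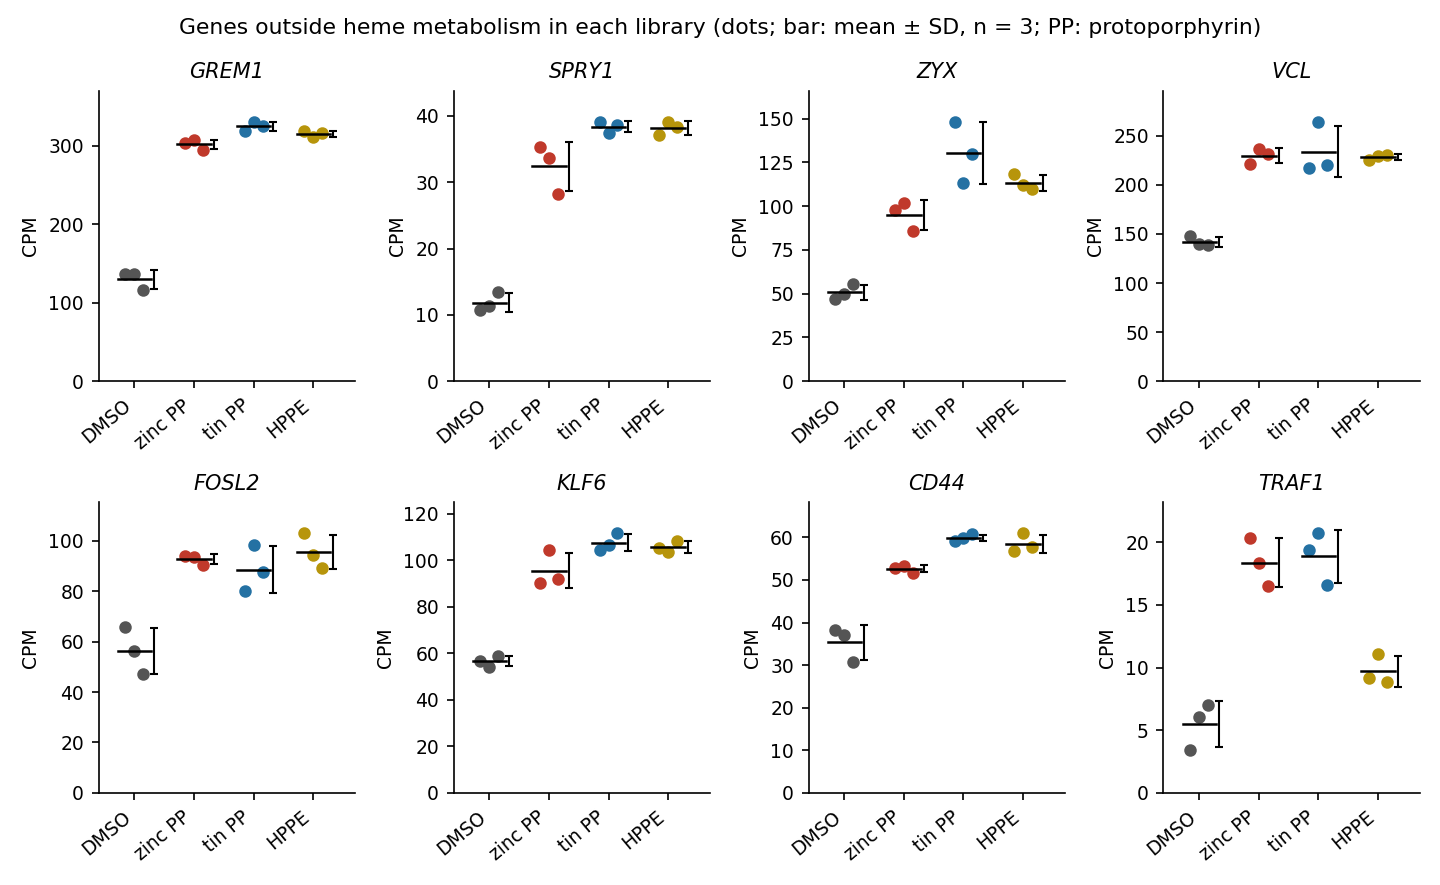
CPM of 8 called genes outside heme metabolism in each of the 12 libraries (dots), with group mean (line) and SD (bar, n = 3), on linear axes that start at 0. In each panel all zinc protoporphyrin libraries lie above all DMSO libraries, and the tin protoporphyrin and HPPE libraries, compared with the same controls, are shown beside them.

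Genes of the list for MAPK feedback had the same direction where called. In that list, which holds ERK-induced genes beside negative regulators, 5 of 16 were called higher (median 0.38, 14 above 0), beside 1.84% of all genes tested. The same share stands behind the counts of higher calls in the lists that follow, and 0.415% behind those of lower calls. SPRY1, a Sprouty inhibitor of receptor tyrosine kinase signals, was at 35.4, 33.6 and 28.3 CPM against 10.7, 11.4 and 13.4 CPM, without overlap (1.48 ± 0.13, adjusted p = 4.27e-06), and was called in every alternative. SPHK1, sphingosine kinase, rose by 0.99 ± 0.20, PHLDA1 by 0.79 ± 0.19, the phosphatase DUSP4 by 0.50 ± 0.09 and SPRY4 by 0.47 ± 0.08, and these 4 lost their call without DMSO 2 (adjusted p between 0.0517 and 0.175). DUSP6, the ERK phosphatase, was at 0.13 and ETV5, an ERK-induced factor, at 0.09, and neither was called. Of 17 measured immediate early and AP-1 genes 2 were called: KLF6, a zinc finger factor, at 90.4, 104 and 91.8 CPM against 56.8, 54.2 and 58.7 CPM (0.78 ± 0.08), and FOSL2, an AP-1 subunit, at 94.1, 93.6 and 90.3 CPM against 65.6, 56.1 and 47.2 CPM (0.67 ± 0.11). Both kept their call in every alternative. FOS and JUN had log2 fold changes of 0.05 and 0.25 and were not called.

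In the BMP and TGF-beta list 5 of 17 measured genes were called higher (median 0.12, 11 above 0). GREM1, a secreted BMP antagonist, was at 303, 306 and 295 CPM with zinc protoporphyrin and 137, 136 and 116 CPM with DMSO (2.30-fold, adjusted p = 3.96e-07), the lowest adjusted p among the genes named here. It was well separated from DMSO and was called in every alternative. INHBA, an activin subunit, rose by 0.82 ± 0.14, ID4, a BMP target, by 0.59 ± 0.13 and the ligand TGFB2 by 0.53 ± 0.11; without DMSO 2 their adjusted p was 0.0584, 0.206 and 0.146. SMAD7 and BAMBI, inhibitors of the pathway, were at 0.24 and -0.02 and were not called. Of 12 measured genes of secreted and cytokine signals 3 were called: the growth factor NRG1 (0.56 ± 0.12), the chemokine CCL2 at 16.6, 19.9 and 15.4 CPM against 4.23, 8.71 and 11.5 CPM (2.45-fold, adjusted p = 0.0405), and IL7R, which had 23 counts in the zinc and 4 in the DMSO libraries, a ratio of 5.56 (95% counting interval 1.90 to 22.1). None of these 3 was called without DMSO 2 or without both shallow libraries. FGF5, a growth factor outside the lists, was at 11.3, 11.8 and 12.9 CPM against 4.50, 4.22 and 5.74 CPM (1.43 ± 0.21, adjusted p = 0.0014).

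Sterol genes showed 3 calls among 20 measured, all higher (median 0.18, 17 above 0). INSIG1, which retains the sterol sensor in the endoplasmic reticulum, rose by 0.65 ± 0.11 and HMGCS1, an enzyme of the mevalonate pathway, by 0.46 ± 0.09, with adjusted p of 0.0678 and 0.0836 without DMSO 2. In the circadian list 2 of 19 were called, NPAS2, a CLOCK relative (0.96 ± 0.22), and RORB, a nuclear receptor (0.52 ± 0.13), and both lost their call without DMSO 2 (adjusted p = 0.194 and 0.161). In the list for the unfolded protein response of the endoplasmic reticulum, ERN1, the sensor IRE1, was the 1 called of 17, at 33.1, 28.5 and 27.4 CPM against 41.0, 42.0 and 38.3 CPM (-0.51 ± 0.11, adjusted p = 0.0239, and 0.146 without DMSO 2).

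Among genes of cell identity, no noradrenergic gene passed the edgeR test, and calls in the mesenchymal and fibroblast lists lay in both directions. None of 19 measured noradrenergic genes was called by edgeR, and DESeq2 called 2. An unadjusted edgeR p under 0.05 was seen in 8 of the 19, beside 3051 of all 16366 genes tested. Of the 19, 14 were below 0, with a median of -0.09, and CHGB, a granin of secretory granules, was at -0.34 (edgeR adjusted p = 0.061). In 8 of the 19 all zinc libraries lay below all DMSO libraries, beside 10.4% of all genes tested, and in 0 above. The whole list of 20 summed to 4334 to 4786 CPM with zinc protoporphyrin and 4997 to 5346 CPM with DMSO, without overlap. Of 11 measured mesenchymal-state genes 9 were above 0 (median 0.31), 2 were called higher and 1 lower, beside 1.84% and 0.415% of all genes tested. CD44, the hyaluronan receptor, rose with FOSL2, at 52.7, 53.4 and 51.7 CPM against 38.4, 37.0 and 30.6 CPM (0.53 ± 0.09). COL3A1, a fibrillar collagen, fell, at 241, 230 and 212 CPM against 295, 271 and 283 CPM (-0.32 ± 0.08). CD44 kept its call in every alternative and COL3A1 lost it in 9 of 18. Of the 8 fibroblast markers 6 were above 0 (median 0.15), 2 were called higher and 2 lower. COL1A2, another collagen, rose by 0.96 ± 0.21 and DCN, decorin, by 0.68 ± 0.16. The receptor PDGFRA fell with COL3A1, from 81.9, 83.8 and 88.7 CPM in DMSO to 61.0, 58.9 and 62.0 CPM (-0.48 ± 0.09, edgeR adjusted p = 0.0072). The 5 fibroblast markers fixed for the check of cell types summed to 183 to 189 CPM in DMSO and 217 to 230 CPM in zinc protoporphyrin. The whole list of 8, which adds COL3A1 and PDGFRA among others, went the other way, at 541 to 567 CPM and 494 to 535 CPM. The mesenchymal markers of that check summed to 698 to 782 CPM in DMSO and 777 to 884 CPM in zinc protoporphyrin. Their whole list overlapped, at 1387 to 1582 CPM and 1519 to 1690 CPM. PRRX1, a defining mesenchymal factor, was at 0 in all 6 libraries. In RNA from whole wells, fewer cells of a type and less RNA per cell cannot be told apart, and the part of these markers in other results was not tested.

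Several genes besides ALAS1 fell. TXNIP, the thioredoxin-interacting protein, was at 78.3, 74.5 and 60.3 CPM with zinc protoporphyrin and 99.6, 117 and 120 CPM with DMSO, without overlap (-0.68 ± 0.12, adjusted p = 0.00772; 0.0737 without DMSO 2). NXF1, the mRNA exporter, was at 44.4, 46.6 and 47.5 CPM against 66.4, 70.7 and 87.4 CPM (-0.64 ± 0.15, adjusted p = 0.0334). INSM2, a neuroendocrine zinc finger factor (-0.68 ± 0.15), MMP15, a membrane metalloprotease (-0.69 ± 0.14), and RGS2, a regulator of G protein signals (-0.95 ± 0.24), also fell, and all 5 lost their call without DMSO 2. HGFAC, the HGF activator, had the lowest log2 fold change of the genes named here (-1.45 ± 0.30) at 4.52, 2.62 and 2.05 CPM against 7.41, 6.60 and 6.38 CPM, and COMMD3 (-1.19 ± 0.26), whose reads can be shared with a readthrough transcript, was at 3.85 ± 1.25 against 8.08 ± 1.62 CPM. Among genes that rose, 3 well measured ones lost their call when length and GC content were corrected for: CEP295NL (1.82 ± 0.41), LINC02691 (1.33 ± 0.26) and ZBTB47-AS1 (1.34 ± 0.31) were highest in zinc 3, and their adjusted p was then 0.103, 0.0662 and 0.0914. Genes with few counts are uncertain. SIRPG, a signal regulatory protein, and MALL, of the MAL family, had 0 counts in all 3 DMSO libraries and 34 and 29 counts in the zinc libraries, which makes them at least 2.72-fold and at least 2.50-fold higher (means over the group, floor of 3 counts in each DMSO library). The antisense gene of SIRPG, SIRPG-AS1, had 62 counts against 6, a ratio of 9.99 (95% counting interval 4.34 to 28.3); whether strand was used in counting is not stated, so reads of SIRPG and SIRPG-AS1 cannot be told apart. PCBP3-AS1 had 52 counts against 6 (8.38, 3.60 to 23.9), and the pseudogenes POU5F1P4 and ZNF75CP had 31 and 27 counts against 4 each, with reads that may belong to their parent genes. Genes not typed as protein-coding in GENCODE release 29, which include genes with no entry there, made up 24.3% of those called higher and 20.6% of all genes tested. Zinc 3 was the highest of the 6 libraries in 57 of these 73 genes called higher. It was so in 158 of all 301 genes called higher and in 1115 of the 3374 genes tested that were not typed as protein-coding.

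**Figure D4:**
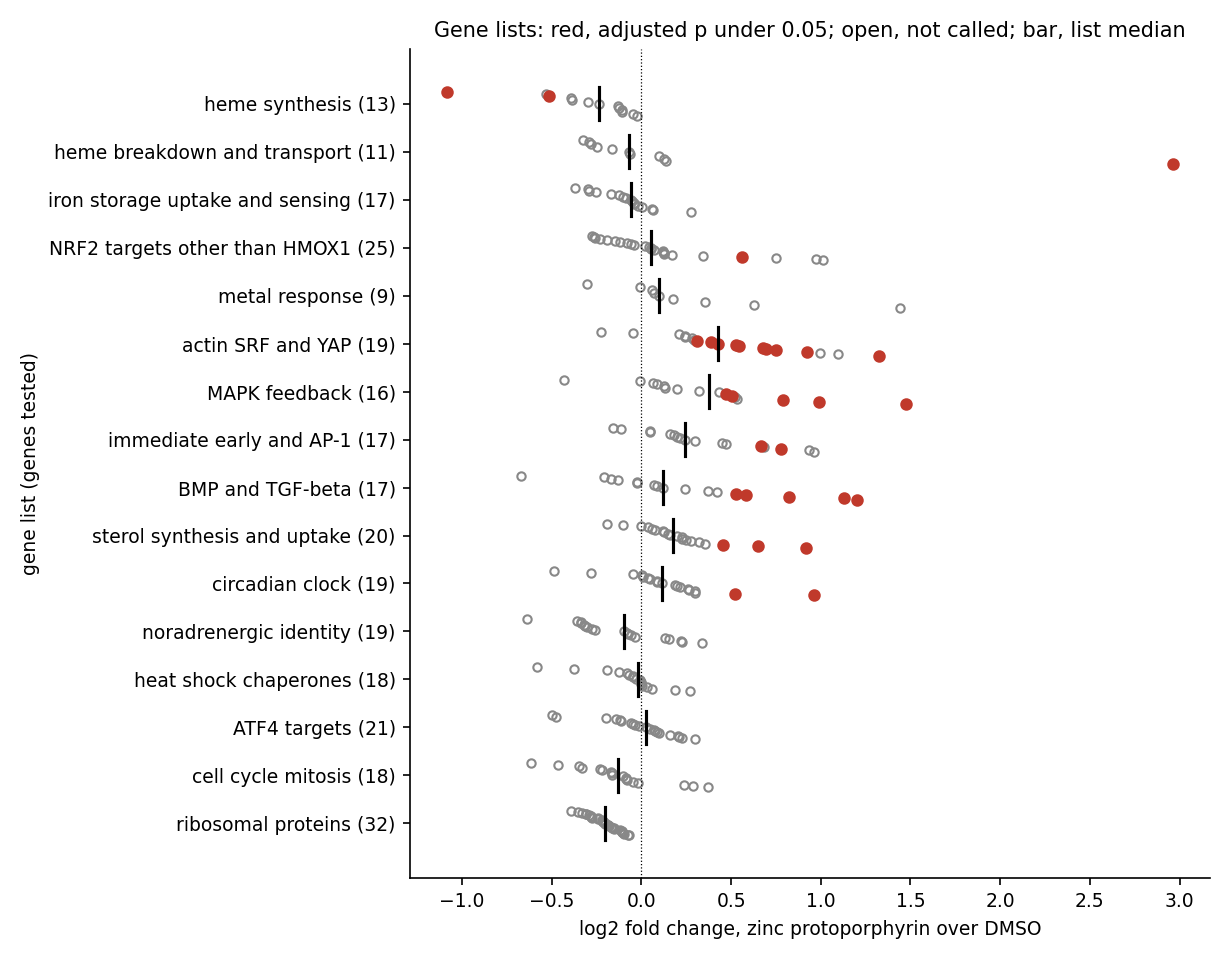
Log2 fold change of zinc protoporphyrin over DMSO for every measured gene of 16 lists (dots; red for adjusted p under 0.05, open for the rest), with the list median (bar) and the number measured in parentheses. Red dots gather in the actin, MAPK feedback and BMP lists, and none is in the iron, metal, heat shock, ATF4, mitosis or ribosomal lists.

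Lists for general stress, growth and energy held no edgeR call. No gene was called among 18 heat shock chaperones, 21 measured ATF4 targets, 18 p53 targets, 16 measured genes of hypoxia and glycolysis, 18 genes of S phase, 18 of mitosis or the 13 of mitochondrial DNA. The 32 ribosomal protein genes were all below 0, with a median of -0.20, and none was called; under a correction for length and GC content 30 were below 0 with a median of -0.12, and without DMSO 3 the median was -0.06. The 26 nuclear genes of the respiratory chain had a median of -0.22, with 21 below 0, and -0.07 without DMSO 3. Neuronal lists were also without calls: 15 of 20 genes of synapses, adhesion and channels were above 0 (median 0.21, and 0.14 under the correction for length and GC content), and 15 of 23 measured axon guidance genes (median 0.08). Over all lists with 0 edgeR calls, 41 of 270 measured list members had an unadjusted edgeR p under 0.05, beside 3051 of all 16366 genes tested. DESeq2 called 3 of the 270: 2 noradrenergic genes and 1 of mitochondrial DNA. Over all genes tested 8093 of 16366 were above 0.

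**Figure D5:**
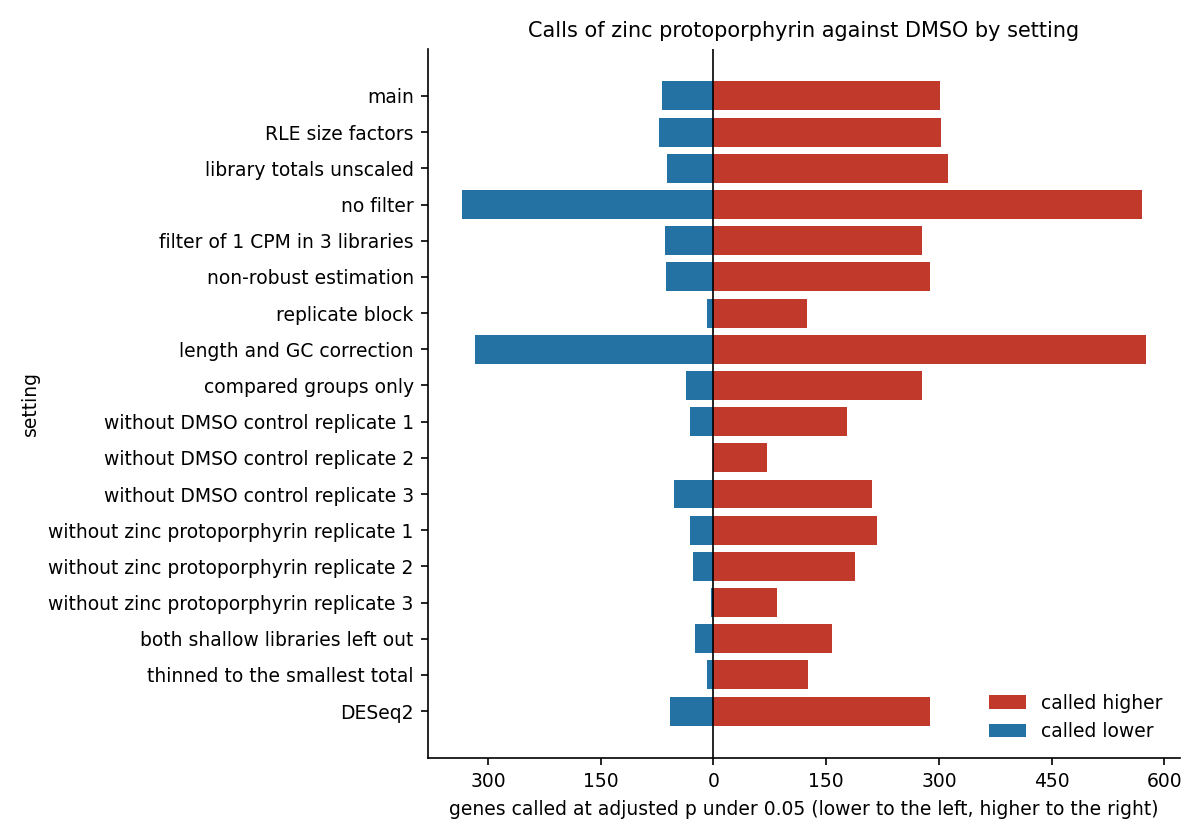
Number of genes called higher (right) and lower (left) with zinc protoporphyrin against DMSO under 18 analyses, the one reported first and 17 of its 18 alternatives; the 1 with a library axis as a covariate, with 2247 higher and 1911 lower, is left out because it would stretch the axis. The fewest calls came without DMSO replicate 2, with 71 higher and 1 lower.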

How the data were processed

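RNA of 12 SH-SY5Y libraries in 4 groups of 3 was made into mRNA libraries with an MGIEasy kit (per the labels' protocols). Values as deposited are whole-number counts of reads for each gene without normalization; per the submitters' processing notes the reads passed fastp 0.21.1, STAR 2.7.7a and featureCounts on GRCh38. The gene annotation and the strand setting are not given in the sources used here. The table had 0 further sample columns. Symbols were matched for 60437 of 60710 rows, and lengths, GC content and positions came from GENCODE release 29 (lengths for 16185 of the tested genes), which need not be the authors' annotation; promoters came from RefSeq, GRCh38.p14, and 258 of 369 called genes had one.

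Counts were tested with edgeR 4.0.16 in R 4.3.3 (filterByExpr by group, TMM scaling, estimateDisp, robust glmQLFit, two-sided glmQLFTest, one mean per group over all 12 libraries), with Benjamini-Hochberg adjustment over 16366 genes holding 99.6% of counts and a threshold of 0.05. CPM values were TMM-scaled; errors of log2 fold changes are SE from the F statistic. The biological coefficient of variation was 0.0913. Libraries within the zinc protoporphyrin and DMSO groups differed beyond counting noise (chi-square per degree of freedom at least 1.49). HPPE 2 and HPPE 3, which entered the shared estimate of spread, were closer to counting noise, at 1.11. No library was treated as a repeat of another. The procedure was tested on simulated data.

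The members, gene lists and naming rule were chosen with earlier results of these data known, so no list is independent evidence and none was tested as a set. Named were HMOX1 and ALAS1; the 12 largest changes each way among called genes without overlap and at least 1 CPM in a group; the 15 largest each way at 10 CPM; called list members; NFE2L2, BACH1 and KEAP1; and genes called between compounds. Core genes outside this rule, and uncalled list members named for comparison, were chosen after their values were seen. A few genes the rule names are left out of the text. The 18 alternatives were RLE or no scaling, no filter, a 1 CPM filter, non-robust estimation, a replicate block, a library axis (first principal component of deviations from group means), a lowess length and GC correction (span 0.3), compared groups only, each of the 6 libraries left out, both shallow libraries left out, thinning to 1337028 counts, and DESeq2 1.42.0.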

Additional observations from a re-analysis of the deposited data

How the results depend on the processing

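The 175 followed genes of the zinc protoporphyrin comparison were the named genes and all 46 core genes, which by definition lost no call. Of the 175, 114 were called, and 66 of these lost the call in at least 1 of the 18 alternatives. None of the 114 changed direction, and their calls were lost most often without DMSO 2 (63) and without zinc 3 (55). Over all calls, 49 of the 301 higher and 1 of the 68 lower kept the call in every alternative that tested them. The 301 higher and 68 lower calls became 570 and 334 with no filter, 575 and 317 with the length and GC correction, 2247 and 1911 with the library axis (whose spread is understated by construction, since the axis is drawn from the same residuals), 158 and 25 without both shallow libraries and 126 and 8 after thinning to the smallest total; lower calls were 36 with the compared groups only. Leaving out 1 library each gave 71 to 217 higher and 1 to 53 lower calls. Zinc against tin protoporphyrin, with 1 higher and 0 lower, gave 70 and 200 with no filter, 1221 and 1129 with the axis, 4 and 16 with the length and GC correction, 1 lower with the 1 CPM filter and with DESeq2, and 1 to 777 higher and 0 to 676 lower with 1 library left out. HPPE against zinc protoporphyrin, with 1054 higher and 1024 lower, gave 1781 higher with no filter, 3017 and 2681 with the axis, 2227 and 2040 with the compared groups only, 256 and 363 after thinning, and 100 to 1035 higher and 73 to 896 lower with 1 library left out. The cause of these moves was not tested.

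The labels do not say that replicate numbers mark a shared plate or day. The deviations of same-numbered zinc and DMSO libraries correlated at -0.26, -0.12 and -0.45. Over all same-numbered libraries of the 4 groups such correlations ran from -0.68 to 0.52. They may also carry the trend of each library on transcript length, so they cannot show whether the numbers pair the libraries. With a replicate block the calls were 124 higher and 9 lower for zinc protoporphyrin against DMSO, and 390 and 368 for HPPE against zinc protoporphyrin.

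Depth limited genes under about 2 CPM, since DMSO 3 and zinc 1 were shallow.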
